A study of Mus musculus with 10 samples.

Results

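The 83 miRNAs described here are late-numbered mouse miRNAs, with names from miR-1000 upwards, that were present at a mean of at least 10 normalised reads in the retina. A miRNA number is given in order of registration, so the high numbers belong to miRNAs found after deep sequencing had become common. They were chosen by 3 criteria. The number had to be 1000 or more, the locus could not be on chromosome 12, which holds a large imprinted miRNA cluster, and the mean over all 10 libraries had to reach 10. The deposited table listed 1061 mature miRNAs, of which 458 carried such a number. Of these, 27 were on chromosome 12, 348 of the other 431 had a mean below 10, and the remaining 83 made up 17.1% of the 484 miRNAs of the table that reached the mean of 10. Just inside the threshold were miR-7059-5p at 10.3, miR-7070-3p at 10.3 and miR-6953-3p at 10.6 normalised reads, and just outside were miR-6899-3p at 9.90, miR-7668-5p at 9.89 and miR-7075-3p at 9.54. Since the mean level chose these miRNAs, their levels are given as a description only.

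The libraries came from wild-type C57BL/6J mice, an inbred laboratory strain, at postnatal day 34. Every animal had worn a lens of -20 D, which moves the focus to a plane behind the retina and serves as a model of myopia, over 1 eye for the last 10 days from day 24, and the fellow eye had no lens. Small RNA of the left and of the right retina of mice 61, 64, 65, 66 and 68 was sequenced, giving 5 left and 5 right libraries. The labels give the side of each retina and do not say which eye wore the lens. Right was therefore compared with left within mice, with no side taken as the treated one.

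A canonical miRNA is cut from a hairpin transcript by Drosha with its partner Dgcr8 in the nucleus and by Dicer in the cytoplasm, and 1 strand of the resulting duplex, the 5p or the 3p arm, is loaded into an Argonaute protein. Its seed, bases 2 to 8, pairs with target mRNAs. Other routes exist. A mirtron is a hairpin that coincides with a short intron, so that the spliceosome and not Drosha makes its ends, and a tailed mirtron shares only 1 end with the intron. Some small nucleolar RNAs (snoRNAs) and the related small Cajal body RNAs (scaRNAs), which guide the modification of other RNAs, are also processed into miRNA-sized fragments. The retina is best known for the abundant miR-183, miR-96 and miR-182 cluster of photoreceptors, all of low number, and the late-numbered miRNAs are among its scarce small RNAs.

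Of the 83 late-numbered miRNAs, 24 had an end at or within 3 bases of a splice site of the intron they lie in, 8 lay within an annotated snoRNA or scaRNA gene, and 51 did neither. In the first class, 17 miRNAs ended on the last base of their intron, 5 ended 1 to 3 bases before it, and 2, miR-1981-5p and miR-1224-5p, started on its first base. RefSeq (GRCm38.p6) gave a mature sequence for 72 of the 83. The sequences below are those of intron-end miRNAs, shown because their last letters carry the pattern: capitals mark the seed, bases 2 to 8 from the 5′ end, and the last 3 letters of those ending on the intron's last base are the 3′ splice site.
miR-7068-3p: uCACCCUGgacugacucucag
miR-6944-3p: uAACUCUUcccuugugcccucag
miR-3082-3p: cACAUGGCacucaacucugcag
miR-6989-3p: uGUCCACUgucucuggucccag
miR-7015-3p: uCUCACUGuccucugcacuag
miR-7226-3p: uGACACAGccauucucugagcag
miR-7046-3p: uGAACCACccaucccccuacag
miR-6988-3p: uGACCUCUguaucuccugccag
miR-3076-3p: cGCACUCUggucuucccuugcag
miR-3103-3p: uAACCUCUgauccuucccacag
miR-7043-3p: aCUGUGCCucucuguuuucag
miR-1224-5p: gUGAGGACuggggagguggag
miR-1981-5p: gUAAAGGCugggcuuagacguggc
miR-1981-3p: cAUCUAACccuggccuuugac
The letters CAG, the usual end of a mammalian intron, closed 13 of the 72 known sequences (18.1%). All 13 belonged to the 21 intron-end miRNAs with a known sequence. Among the 352 other miRNAs with a mean of at least 10 and a known sequence, 4 (1.14%) ended in CAG.

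For 5 of the 17 intron-end miRNAs whose hairpin RefSeq lists, the hairpin ran from the first to the last base of the intron. Their introns belonged to Marc2 (both arms of miR-1981), Vwa5b2 (miR-1224-5p), Dbn1 (miR-6944-3p) and Cherp (miR-7068-3p). The hairpins of 3 of these introns are printed to show that they open with GU and close with AG, the boundary letters of most introns. Here capitals mark the mature arms that reached the mean of 10.
Mir1981: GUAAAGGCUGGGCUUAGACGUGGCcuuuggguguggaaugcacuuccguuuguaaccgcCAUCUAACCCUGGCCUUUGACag
Mir1224: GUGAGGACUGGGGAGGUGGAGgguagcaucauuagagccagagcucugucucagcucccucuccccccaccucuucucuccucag
Mir7068: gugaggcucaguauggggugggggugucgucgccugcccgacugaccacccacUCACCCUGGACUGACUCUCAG
In GRCm38, Mir1981 lies on the minus strand at chr1:184822407-184822488 and is 82 bases long, Mir1224 on the plus strand at chr16:20604452-20604536 with 85 bases, and Mir7068 on the minus strand at chr8:72470016-72470089 with 74 bases. For the other 12 the hairpin was shorter than the intron. Among all 24, 18 lay in introns of 74 to 178 bases and 6 in introns of 550 to 1589 bases. The longest of these introns, in Rassf4, had miR-7043-3p at its end, and the next, in Smap2, had miR-7015-3p.

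**Figure D1:**
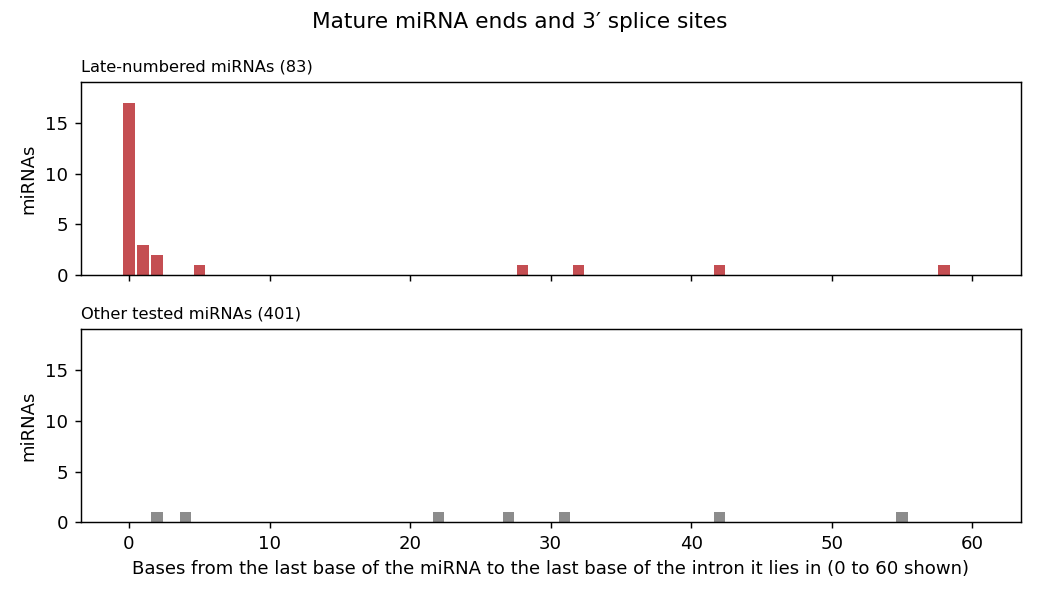
Distance in bases (horizontal axis) from the last base of a mature miRNA to the last base of the intron it lies in, for the 83 late-numbered miRNAs (top) and the other 401 miRNAs with a mean of at least 10 (bottom); bars are numbers of miRNAs and distances above 60 are not drawn. The bar at 0 holds 17 late-numbered miRNAs and none of the others.

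The same position was rare among the other 401 miRNAs with a mean of at least 10, where 2 (0.499%) lay at an intron end, miR-877-5p at the start of an Abcf1 intron and miR-700-5p near the end of an Rcan3 intron, against 28.9% of the late-numbered set. Among the 348 late-numbered miRNAs below the mean of 10, 90 (25.9%) lay at an intron end, so the share was similar on both sides of the threshold. With the end required to coincide exactly, 19 late-numbered miRNAs and 1 other were counted, and with 5 or 10 bases allowed 25 and 3. The late-numbered miRNA added at 5 bases was miR-5129-3p in Zeb2. Annotated snoRNA or scaRNA genes held 9.64% of the late-numbered set and 6 of the other 401 (1.496%). The late-numbered sequences also had a higher median GC content, 54.5% against 47.6%, and more of them began with U, 50.0% against 40.3%. These differences describe the annotation and were not tested.

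**Figure D2:**
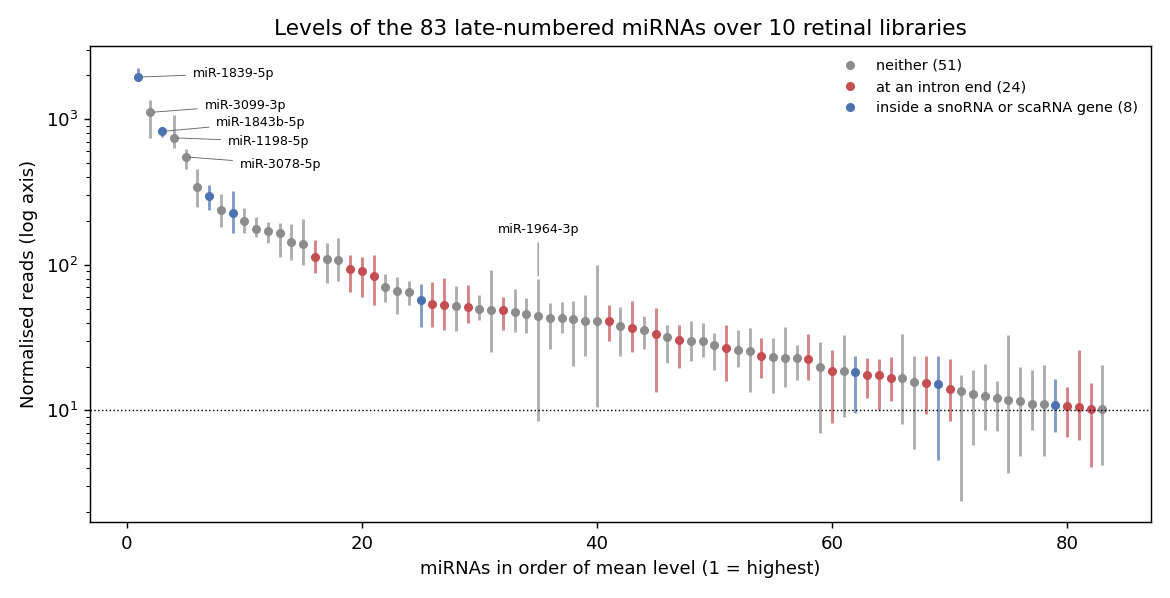
Mean (point) and lowest to highest value over 10 libraries (line) of the 83 late-numbered miRNAs, in order of mean level, in normalised reads on a log axis; colours give the class by position and the dotted line is the threshold of 10. The snoRNA and scaRNA class holds the highest mean, miR-1839-5p, and the intron-end class starts at 113 normalised reads.

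The late-numbered miRNAs were scarce in the retina. Their summed level was 8855 to 10283 normalised reads per library, 0.0511% to 0.0594% of the total. The normalisation left that total nearly equal in every library, at 17312269 to 17312436, so this is not a share of sequenced reads. The median of the means of the 83 was 38.2, against 189 for the other 401. The highest of the 83, miR-1839-5p, was at rank 91 of the table. A mean of 500 or more was reached by 5 of the 83, 13 were between 100 and 500, 11 between 50 and 100, and 54 below 50. The 10 highest held 66.7% of the summed level. No library had a value of 0 for any of the 83. Ligation of adapters favours some sequences, so levels of different miRNAs are only roughly comparable. A comparison of 1 miRNA between libraries avoids differences in sequence, but each value reflects its rank among the other miRNAs of its library.

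By class, the 8 miRNAs within snoRNA and scaRNA genes held 34.9% of the summed level, the 24 at intron ends 9.59%, and the 51 others 55.5%. The snoRNA and scaRNA class summed to 3385 ± 105 normalised reads in left and 3398 ± 187 in right retinas (mean ± SD, n = 5 each). The intron-end class summed to 901 ± 60.8 in left and 964 ± 134 in right retinas. The remaining miRNAs summed to 5301 ± 208 and 5491 ± 347. In each class the left and right ranges overlapped. The libraries are of whole retina, so fewer cells of a type and less RNA per cell cannot be told apart.

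Among the miRNAs within snoRNA and scaRNA genes, miR-1839-5p, both arms of miR-1843b and miR-3535 had the highest levels. Sequences of the class are printed with the seed in capitals, since those known share no seed with each other and come from structured RNAs of other function.
miR-1839-5p: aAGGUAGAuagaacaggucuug
miR-1843b-5p: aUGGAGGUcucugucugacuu
miR-1843b-3p: cCGAUCGUuccccuccauac
miR-3535: uGGAUAUGaugacugauuaccugaga
miR-5121: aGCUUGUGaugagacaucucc
miR-6516-5p: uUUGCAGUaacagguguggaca
miR-1839-5p (chr7:81529919-81529940, plus strand) lay in an exon of the long noncoding RNA 2900076A07Rik, at a locus annotated as a scaRNA. In the order of mice 61, 64, 65, 66 and 68, which is kept below, it was at 1865, 1865, 2117, 1990.0 and 1865 normalised reads in left and 1865, 1865, 1865, 2262 and 1898 in right retinas. The value of 1865 recurred in 6 of 10 libraries, since the normalisation gave each rank nearly the same value in every library. Left and right retinas had 1941 ± 112 and 1951 ± 174 normalised reads (mean ± SD, n = 5 each).

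miR-1843b-5p and miR-1843b-3p are the arms of a hairpin within Scarna3a, in an intron of Cop1, a ubiquitin ligase gene on chromosome 1. miR-1843b-5p (chr1:159340362-159340382, plus strand) was at 809, 809, 870.0, 842 and 821 normalised reads in left and 886, 779.7, 758, 831 and 831 in right retinas. Its values had the smallest SD of the 83 on the log2 scale, 0.07 over 10 libraries. The 3p arm (chr1:159340400-159340419) was at 282, 282, 317, 239 and 312 in left and 350.0, 290.2, 277, 254 and 352 in right retinas, with overlapping sides. The 5p sequence also occurs in the miRNA gene of miR-1843a within Scarna3b on chromosome 12, so reads of the 2 loci cannot be told apart.

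miR-3535 (chr1:86352062-86352087, minus strand), 26 bases long, lay in a snoRNA gene in an intron of Ncl, which encodes the nucleolar protein nucleolin. It was at 266, 269.7, 165, 184 and 247 normalised reads in left and 322, 211, 171, 173 and 244 in right retinas. Both retinas of mice 65 and 66 were below both retinas of mice 61, 64 and 68. The other 4 of the class were lower: miR-5121, within Snord33 of the ribosomal protein gene Rpl13a, at a mean of 56.9, miR-6516-5p of the snoRNA host gene Snhg20 at 18.2, miR-1839-3p at 15.2 and miR-3084-3p of Cbwd1 at 10.9 normalised reads.

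The intron-end miRNAs lay in 23 host genes, 24 miRNAs in all, with means from 10.3 to 113 and a median of 28.7 normalised reads. All but miR-1981-5p and miR-1224-5p were 3p arms. The highest was miR-7068-3p (chr8:72470016-72470036, minus strand), at the end of an intron of Cherp, which encodes a splicing-associated protein of the endoplasmic reticulum and nucleus. It was at 108, 113, 96.2, 89.8 and 108 normalised reads in left and 147, 137, 88.4, 102 and 138 in right retinas, higher on the right in 4 of 5 mice, and left and right values overlapped. Its log2 difference, right minus left, was 0.23 (SE 0.10), with an adjusted p of 0.958 (limma).

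miR-1981 gave both arms of 1 intron. The 5p arm (chr1:184822465-184822488, minus strand) was at 37.3, 43.5, 50.8, 54.4 and 47.5 normalised reads in left and 53.7, 53.1, 49.9, 76.1 and 71.8 in right retinas, and its right value was the higher in 4 of 5 mice. It had the smallest p of the 83 for right minus left, with a log2 difference of 0.37 (SE 0.12), an unadjusted p of 0.0202 and an adjusted p of 0.958 (limma). The 3p arm was the more abundant, with a mean of 93.4 normalised reads. miR-6944-3p, from Dbn1, the gene of the actin-binding protein drebrin of dendritic spines, had a mean of 89.9, and miR-3082-3p, from Stub1, a ubiquitin ligase gene, 83.4. miR-3102-3p of Arhgef17 (chr7:100882307-100882329, minus strand) was at 81.1, 72.3, 37.2, 44.6 and 58.9 normalised reads in left and 63.7, 44.6, 35.9, 43.8 and 51.3 in right retinas. It was lower on the right in all 5 mice, with a log2 difference of -0.26 (SE 0.13) that did not pass the test (limma, adjusted p = 0.958).

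miR-7226-3p (chr4:118210505-118210527, minus strand) is at the end of an intron of Ptprf, which encodes a receptor tyrosine phosphatase of the LAR family. It was at 38.1, 38.8, 37.2, 36.3 and 30.03 normalised reads in left and 51.9, 51.3, 31.4, 52.7 and 42.2 in right retinas, a log2 difference of 0.32 (SE 0.14). miR-7235-3p of Tbkbp1 (chr11:97146364-97146386, minus strand), whose mean of 10.7 is close to the threshold, was at 6.60, 9.70, 7.94, 10.5 and 7.01 in left and 10.9, 14.5, 14.5, 11.9 and 13.6 in right retinas. Every right value exceeded every left value. Its left mean of 8.35 was below the threshold of 10 and its right mean of 13.1 above it, so it entered the set only through its higher right values, and its difference and test are not independent of that choice. The log2 difference was 0.60 (SE 0.23), and both this miRNA and miR-7226-3p had an adjusted p of 0.958 (limma). Of the other intron-end miRNAs, miR-6989-3p (Map4k2) had a mean of 51.1, miR-7015-3p (Smap2) 49.0, miR-1224-5p 36.6, miR-7046-3p (Rabac1) 33.6, miR-6988-3p (Syvn1) 30.6 and miR-3076-3p (Tkt, transketolase) 26.8 normalised reads, and the remaining 10 lay between 10.3 and 23.7.

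The 51 miRNAs of neither class included 6 of the 10 most abundant late-numbered miRNAs. The sequences of those that carry the levels and the differences described next are printed with the seed in capitals.
miR-3099-3p: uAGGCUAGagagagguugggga
miR-1198-5p: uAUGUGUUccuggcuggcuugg
miR-3968: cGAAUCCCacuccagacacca
miR-5100: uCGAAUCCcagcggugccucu
miR-3057-5p: aUUGGAGCugagauucugcgggau
miR-1968-5p: uGCAGCUGuuaaggaugguggacu
miR-1947-5p: aGGACGAGcuagcugagugcug
miR-1964-3p: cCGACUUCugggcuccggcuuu
miR-3061-3p: cUACCUUUgauaguccacugcc
miR-7689-3p: uUAGAGCCagacugccuggguuu
miR-1298-5p: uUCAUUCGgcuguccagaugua
miR-3085-3p: uCUGGCUGcuauggcccccuc
miR-3064-5p: uCUGGCUGuuguggugugcaaa
miR-3968 and miR-5100 both hold the letters CGAAUCC, which were in none of the 352 other sequences. The letters were picked from sequences already seen, so nothing is read from their absence in the others. Such a run occurs in the T arm of many transfer RNAs, and miR-3968 further ends in CCA, the letters at the 3′ end of mature transfer RNAs. Searched on the RNA strand only, CCA ended 3 of the 72 late-numbered sequences and 2 of the 352 others. Among the 72 late-numbered miRNAs with a known sequence, a seed was shared only by miR-3085-3p and miR-3064-5p (CUGGCUG). miR-5129-3p shares its seed with miR-455-5p, and miR-6240 with miR-330-3p.

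miR-3099-3p (chr7:6803638-6803659, plus strand) lay in an intron of Usp29, a ubiquitin protease gene of the imprinted Peg3 region. It was at 1054, 941, 941, 1303 and 1054 normalised reads in left and 1303, 1363, 748, 1188 and 1243 in right retinas. The right retina of mouse 65 had the lowest value of all 10. Left and right retinas overlapped, with 1059 ± 148 and 1169 ± 244 normalised reads (mean ± SD, n = 5 each).

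miR-1198-5p (chrX:7807142-7807163, plus strand) lay in an intron of Gripap1, whose product takes part in recycling AMPA-type glutamate receptors. It was at 637, 637, 1074, 779.7 and 637 in left and 748, 758, 662, 736 and 779.7 in right retinas. Its highest value was in the left retina of mouse 65, and the other 9 lay between 637 and 779.7.

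miR-3078-5p (chr14:64591200-64591222, plus strand) lay in an exon of Mir124a-1hg, the host transcript of a miR-124 gene; miR-124 is the main neuronal miRNA. It was at 593, 552, 505, 457 and 581 normalised reads in left and 599, 535, 559.8, 505 and 619 in right retinas, higher on the right in 4 of 5 mice but with overlapping sides. Its log2 difference was 0.07 (SE 0.08).

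miR-3968 (chr11:115447969-115447989, minus strand), outside annotated genes on its strand, was at 391, 250.0, 300.0, 336 and 448 in left and 290.2, 282, 457, 359 and 312 in right retinas. Neither side was the higher in all mice. miR-3057-5p (chr10:81271610-81271633, plus strand) overlapped an exon of Apba3, which encodes an adaptor protein that binds the amyloid precursor protein. It also lay within an intron of 135 bases of another transcript. Its values were 221, 277, 244, 226 and 211 in left and 266, 305, 181, 232 and 214 in right retinas. miR-1968-5p (chr8:13189068-13189091, minus strand), in an intron of Grtp1, was at 165, 192, 213, 244 and 184 in left and 226, 205, 169, 205 and 205 in right retinas. For all 3 the left and right ranges overlapped and the log2 difference was between -0.01 and 0.02.

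miR-1947-5p (chr16:33105375-33105396, plus strand), in an intron of the metallopeptidase gene Lmln, was at 157, 162, 162, 155 and 181 in left and 213, 194, 155, 173 and 211 in right retinas. The right value was higher in 4 of 5 mice and lower in mouse 65. Its log2 difference of 0.20 (SE 0.09) had an adjusted p of 0.958 (limma).

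Some further miRNAs of the class are given with their host genes, chosen for mention after their positions were known. Both arms of miR-1298 lay in an intron of Htr2c, the gene of a serotonin receptor, at means of 70.4 (5p) and 46.1 (3p) normalised reads. Both arms of miR-1306 lay in an exon of Dgcr8 itself, at 12.9 (5p) and 19.95 (3p). miR-6540-5p, in an intron of the growth cone protein gene Gap43, had 43.1, miR-1251-5p, in the neural noncoding RNA Rmst, 12.1, and miR-3064-5p, in the RNA helicase gene Ddx5, 12.5. By position, 46 of the 83 lay in introns only, 22 overlapped an exon of any transcript, and 15 were outside any other annotated gene on the same strand. Some of the 22 also lie in an intron of another transcript, among them 4 of the 24 intron-end miRNAs.

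Some of the 83 names cannot be tied to 1 locus. The sequence of miR-3470b, at a mean of 11.6, occurs in 45 annotated miRNA genes and in transcripts of 546 other genes. miR-1843b-5p, miR-3074-5p and miR-3084-3p each match 2 miRNA genes. In all, 4 of the 72 late-numbered sequences and 34 of the 352 others matched 2 or more miRNA genes. Only exact matches on the sense strand of GENCODE M21 transcripts were searched, so copies elsewhere in the genome were not seen.

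The opposite arms of the same hairpins were read where the table held them. Of the 66 late-numbered miRNAs with an arm in the name, 41 had the opposite arm in the table. In 29 of these the opposite arm was below 10, with the arm described here 4.42 times (miR-3103-3p) to 1127 times (miR-7068-3p) as high and a median ratio of 69.5. The arm described here had to be the higher in these 29, since it was chosen for a mean of at least 10. Large ratios can also rest on an opposite arm near the floor. For miR-7068-5p the mean was 0.1 and 7 of 10 libraries were at 0. The other 12 were the arms of 6 hairpins with both arms above the threshold. The ratio of the 5p to the 3p arm, given as the median and range over 10 libraries, was 134 (79.5 to 409) for miR-1839, 2.74 (2.36 to 3.52) for miR-1843b and 1.52 (1.18 to 2.43) for miR-1298. The 3p arm was the higher for miR-1981, with a ratio of 0.543 (0.366 to 1.04), and in all libraries for miR-3061, with 0.469 (0.281 to 0.664). For miR-1306 the ratio was 0.619 and ran from 0.253 to 1.64, so neither arm was the higher throughout.

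**Figure D3:**
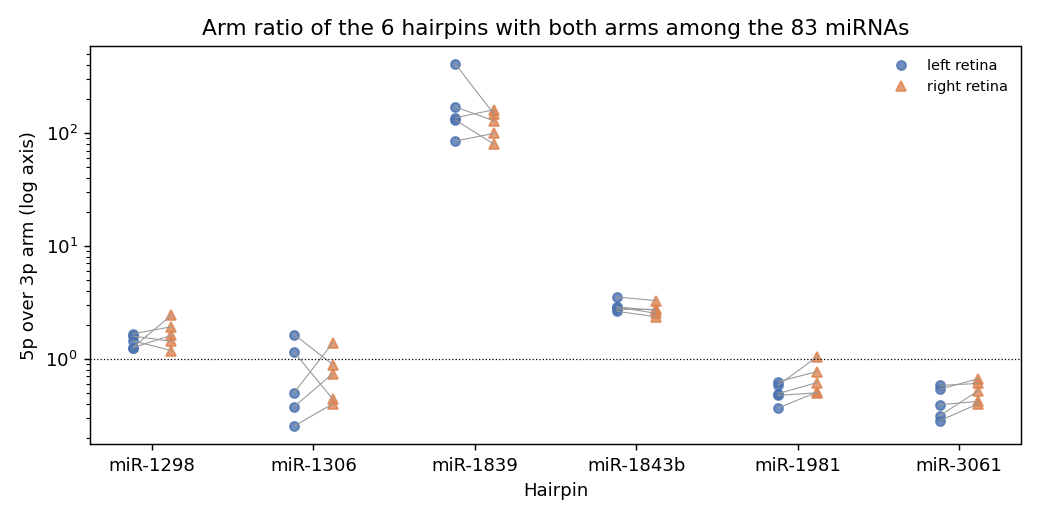
Ratio of the 5p to the 3p arm (log axis) of the 6 hairpins with both arms among the 83 miRNAs, in left (circles) and right (triangles) retinas; grey lines join the retinas of 1 mouse and the dotted line is a ratio of 1. For miR-1981 and miR-3061 the right ratio is the higher in 5 of 5 mice, each with an exact sign-flip p of 0.0625.

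Between the eyes, the log2 arm ratio was higher in the right retina in 5 of 5 mice for miR-1981, by 0.39, and for miR-3061, by 0.33, and lower in 5 of 5 for miR-1843b, with a mean difference of -0.11. Each of these had an exact two-sided sign-flip p of 0.0625, the smallest that 5 mice allow, and 0.125 after adjustment over the 6 hairpins. For miR-1298, miR-1306 and miR-1839 the exact sign-flip p was 0.4375, 0.75 and 0.3125. No arm ratio passed the threshold.

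The mice differed in miR-1964-3p more clearly than in any other late-numbered miRNA. Its hairpin is printed with the miR-1964-3p arm in capitals.
Mir1964: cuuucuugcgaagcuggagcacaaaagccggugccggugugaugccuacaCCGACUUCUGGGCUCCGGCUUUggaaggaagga
It lies on the plus strand in an intron of Zfp84, a zinc finger protein gene, and the mature arm at chr7:29773344-29773365 (GRCm38). The values were 11.3, 63.1, 71.8, 67.0 and 12.8 normalised reads in left and 12.5, 79.3, 67.0, 55.0 and 8.47 in right retinas of mice 61, 64, 65, 66 and 68. Both retinas of mice 61 and 68 were at 8.47 to 12.8, and both retinas of mice 64, 65 and 66 at 55.0 to 79.3, so the retinas of 1 animal went together and the sets of libraries did not overlap. The F test for differences between mice, with side as a covariate, gave F = 60.9 and an adjusted p of 0.0039 (limma, over 484 miRNAs). Between the sides, the log2 difference was -0.09 (SE 0.16). The opposite arm, miR-1964-5p, had a mean of 0.273 and was at 0 in 7 of 10 libraries.

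Of the 484 tested miRNAs, 8 (1.65%) passed the test for differences between mice at an adjusted p of 0.05 and 68 (14.0%) had an unadjusted p below 0.05. Among the 83 late-numbered ones, 1 passed (1.20%), and 6 (7.23%) had an unadjusted p below 0.05: miR-1964-3p, miR-3061-3p, miR-3535, miR-3102-3p, miR-7689-3p and miR-3082-3p. miR-3061-3p (chr11:52126804-52126825, plus strand) lay in an exon of Ppp2ca, the gene of the catalytic subunit of protein phosphatase 2A, and was at 78.2, 67.0, 63.7, 50.4 and 78.2 normalised reads in left and 82.7, 58.1, 58.1, 45.8 and 79.3 in right retinas. It was highest in mice 61 and 68 and lowest in mouse 66 (limma, adjusted p = 0.173). miR-7689-3p (chr5:36301606-36301628, plus strand), outside annotated genes on its strand, was at 23.6, 43.5, 45.3, 40.2 and 29.3 in left and 31.4, 37.3, 47.5, 51.6 and 31.9 in right retinas, with both retinas of mice 61 and 68 below all others (limma, adjusted p = 0.273). The adjusted p was 0.182 for miR-3535 and 0.210 for miR-3102-3p (limma).

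**Figure D4:**
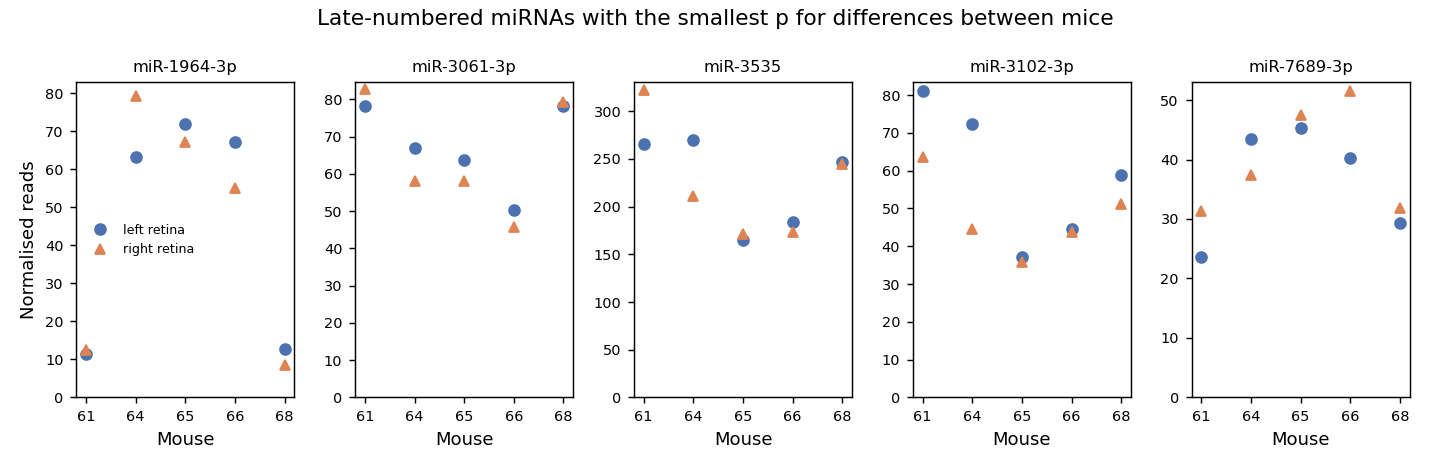
Normalised reads in the left (circles) and right (triangles) retina of each of 5 mice for the 5 late-numbered miRNAs with the smallest p for differences between mice; each panel has its own axis from 0. For miR-1964-3p both retinas of mice 61 and 68 are at 8.47 to 12.8 and those of the other mice at 55.0 to 79.3.

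The spread over the 10 libraries was uneven within the set. The SD of the log2 values was 1.30 for miR-1964-3p, 1.08 for miR-1249-3p, which ran from 10.5 to 100.4 normalised reads, 0.82 for miR-2137 (3.70 to 33.0) and 0.72 for miR-5129-3p (2.40 to 17.6). The last 3 were chosen for mention after their values were seen. At the other end were miR-1843b-5p at 0.07 and miR-1839-5p at 0.10. Their means were 824 and 1946 normalised reads, against 44.8 for miR-1964-3p, 41.2 for miR-1249-3p and 13.5 for miR-5129-3p. The normalisation also gave miR-1839-5p the same value, 1865, in several libraries. The part of level and normalisation in the spread was not tested. Of the miRNAs named in this paragraph, only miR-1964-3p passed the test for differences between mice.

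In the comparison of right with left retina, none of the 83 late-numbered miRNAs passed the test (0%), and none of all 484 did (0%), with a smallest adjusted p of 0.958 (limma, mouse as a block). At an unadjusted p below 0.05 there were 2 (2.41%), miR-1981-5p and miR-7235-3p, against 12 of 484 (2.48%). The direction was the same in all 5 mice for 3 (3.61%), miR-3102-3p, miR-7224-3p and miR-7235-3p, against 18 of 484 (3.72%). Left and right values did not overlap for 1 (1.20%), miR-7235-3p, against 4 of 484 (0.826%). In each of these 3 counts miR-7235-3p is included, which reached the mean of 10 only through its right values, and nothing is read from it. All of these shares were near those of the whole tested table.

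The log2 differences, right minus left, ran from -0.44 (miR-5129-3p) to 0.69 (miR-5100), with a median of 0.06 against -0.01 over all 484. The difference was above 0 for 48 of the 83 (57.8%), against 226 of 484 (46.7%), and below 0 for 35. The median was 0.09 in the intron-end class, with 15 above and 9 below 0, -0.01 in the snoRNA and scaRNA class, with 4 and 4, and 0.06 in the other 51, with 29 and 22. The median half-width of the 95% interval was 0.43 on the log2 scale, a factor of 1.35, and for 72 of the 83 the interval lay within a 2-fold change either way. Changes smaller than these intervals were not detectable in 5 pairs of retinas, and the intervals are not adjusted for the 484 tests. Larger changes could also go uncalled, as for miR-1981-5p, with an unadjusted p of 0.0202 and an adjusted p of 0.958 (limma).

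The mice did not share a direction. The median log2 difference of the 83 was 0.13 in mouse 61, 0.11 in mouse 64, -0.13 in mouse 65, 0.05 in mouse 66 and 0.10 in mouse 68. In mouse 65, 56 of the 83 were lower in the right retina and 27 higher, and in the other mice 46 to 51 were higher. The median over all mice depended on which were included. It was 0.01 without mouse 64, with 45 above and 38 below 0, 0.03 without mouse 61, with 44 and 39, 0.04 without mouse 66, with 53 and 30, and 0.04 without mouse 68, with 48 and 35. For the 29 late-numbered miRNAs with a mean of at least 50 it was 0.0078, with 16 above and 13 below 0. Without mouse 65 it was 0.13, with 58 above and 25 below 0, and 6 of the 83 had an unadjusted p below 0.05, against 62 of 484, none with an adjusted p below 0.05. Among the 352 other miRNAs with a known sequence, the slope of the log2 difference per 10 points of GC content was 0.18, 0.13, -0.16, 0.02 and 0.04 in mice 61, 64, 65, 66 and 68. Its sign was thus that of the median of the late-numbered miRNAs, which are richer in GC, in each of the 5 mice, and the part of GC content in the result was not tested.

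**Figure D5:**
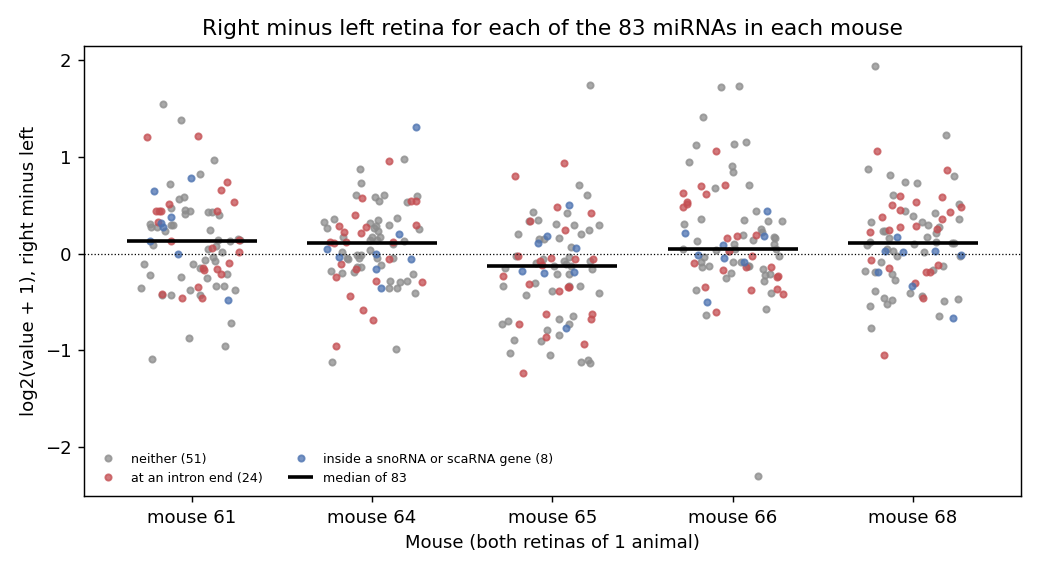
Difference in log2(value + 1), right minus left, of each of the 83 late-numbered miRNAs (points, coloured by class, spread sideways at random) in each of 5 mice, with the median as a bar. The median is -0.13 in mouse 65 and between 0.05 and 0.13 in the other mice.

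Markers of retina and of neighbouring tissues were read in the same libraries. The 8 retinal markers, among them miR-182-5p and miR-124-3p, took 84.3% to 84.5% of every library. The normalisation gave each rank nearly the same value in every library. The share of such high-ranked miRNAs is therefore nearly fixed and does not measure retinal content. The 4 lens and cornea markers, led by miR-184-3p, summed to 1220 to 2315 normalised reads in left and 2122 to 22626 in right retinas. The highest value was that of the right retina of mouse 65, the library with the lowest summed level of late-numbered miRNAs. The 4 muscle markers summed to 295 to 1742 in left, the highest in mouse 68, and 279 to 399.6 in right retinas. The 5 blood markers summed to 4087 to 5119.8 in left and 4261 to 6609 in right retinas, and the 3 connective tissue markers to 262 to 466 and 353 to 572. None of the markers was at 0 in all libraries, and the part of other tissues in the right-minus-left values was not tested. For miR-1964-3p, the test for differences between mice gave an adjusted p of 0.0121 to 0.0264 over the 5 fits that each left out 1 mouse, 65 and 68 included.

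Low-numbered miRNAs of the same non-canonical routes were read for comparison, from a list of 9 that holds mirtrons, hairpins made without Drosha and snoRNA-derived miRNAs. Of these, 8 were in the table and 5 had a mean of at least 10. The mirtron miR-877-5p was at a mean of 248 normalised reads, above all 24 intron-end late-numbered miRNAs, while its 3p arm was at 8.44 and the arms of the mirtron miR-702 at 0.813 (5p) and 4.72 (3p). miR-320-3p and miR-484, whose hairpins bypass Drosha, were at 2435 and 2588, and the snoRNA-derived miR-664-3p and miR-664-5p at 30.9 and 89.9. None of the 5 passed either test, right against left or between mice (limma).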

How the data were processed

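Per the labels' protocols, small RNA was isolated from each retina with a miRNeasy kit, and libraries were made from 50 ng with the TruSeq Small RNA kit. The submitters' processing notes list Bowtie, Partek and the build GRCm38 (mm10). Rules for trimming and counting are not stated in these sources. The deposited values are a signal derived from read counts, called normalised counts by the authors, with equal values at 342 ranks in all libraries and totals of 17312269 to 17312436. Depth is therefore unknown and a value reflects a rank. The table held 0 columns of other samples.

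miRNAs with a mean of at least 10 (484) were fitted as log2(value + 1) in limma (3.58.1, R 4.3.3), blocking on mouse and with a mean-variance trend, two-sided, with Benjamini-Hochberg adjustment at 0.05. Fold changes on this scale understate those of low miRNAs. An F test over mice had side as a covariate. The fit was also run on simulated data with known differences added. Their noise was independent between libraries and they were not rank-normalised, so that run does not test the fit on values like these. Both retinas of a number come from 1 animal. The deviations of the left and the right library from their side means correlated across the 83 miRNAs by 0.181, 0.512, 0.125, 0.112 and 0.405 in mice 61, 64, 65, 66 and 68, and across all 484 by 0.0893, 0.382, 0.159, 0.295 and 0.138.

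Introns, exons and snoRNA genes came from GENCODE M21, and mature and hairpin sequences from RefSeq (GRCm38.p6). Positions are those of the table, counted from 1, with the last base as the end. The members and lists were chosen with earlier results of these data known. Values per library are given for the 10 highest members, the 5 with the smallest p in each test and any that passed. Alternatives covered the block, pseudocount, filter, scaling, trend, side term and each mouse left out.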

Additional observations from a re-analysis of the deposited data

Results flagged for a closer look

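In 3 of the 19 miRNAs given library by library, 1 library stood apart from the other 4 of its side by more than Dixon's 95% criterion. Chance flags about 1 in 20 groups of 5, and each of the 19 miRNAs gave a left and a right group. Nothing is read from the number flagged. In the right retina of mouse 66, miR-1839-5p had 2262 normalised reads, against 1865 to 1898 in the other right retinas. miR-1947-5p was at 181 in the left retina of mouse 68, against 155 to 162 in the other left retinas. miR-3099-3p was at 748 in the right retina of mouse 65, against 1188 to 1363 in the other right retinas.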

How the results depend on the processing

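No miRNA passed the right-minus-left test under any alternative, and among the named miRNAs the lowest adjusted p (limma) was 0.241, without mouse 65. Without the replicate block the count was also 0, with 13 at an unadjusted p below 0.05. The smallest adjusted p (limma) over all 484 was 0.958 with the block and 0.544 without it, so no miRNA was near a call either way. The median log2 difference of the 83, 0.06, could not change with the block. The number of miRNAs that differed between mice was 8 in the main analysis, 16 without the side term, 5 without the variance trend, and 3 to 7 with each mouse left out. miR-1964-3p was called in each of these. With a minimum mean of 50 it was not tested, so that 0 late-numbered miRNAs passed. Of 298 alternative values, 277 kept direction and call, 7 counts moved and 14 log2 differences near 0 changed sign. The block, the filter and the trend leave the log2 difference of a miRNA unchanged in this balanced design. Such values could not change direction, so the 277 are not a measure of robustness.

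With median-ratio scaling the log2 difference was 0.015 for miR-1198-5p and 0.00093 for miR-3968. With each mouse left out it ran from -0.074 to 0.17 for miR-1198-5p, from -0.039 to 0.052 for miR-1839-5p, from -0.063 to 0.020 for miR-1843b-5p, from -0.19 to 0.021 for miR-1964-3p, from -0.082 to 0.11 for miR-1968-5p, from -0.057 to 0.12 for miR-3057-5p, from -0.10 to 0.057 for miR-3535 and from -0.17 to 0.11 for miR-3968. The cause was not tested. The depth of the libraries is unknown, which limits what can be said of the 54 miRNAs below 50 normalised reads.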
